A study of Mus musculus with 3 samples.

Results

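The immunity-related GTPases and guanylate-binding proteins that interferons switch on were followed through the bone marrow of irradiated mice, as the 8 genes Iigp1, Gm4951, Irgm1, Irgm2, Igtp, Gbp2, Gbp3 and Gbp7. They are 8 of the 56980 genes counted in the series and were taken by symbol in all 3 libraries. Each library held bone marrow nucleated cells (BMNCs) pooled from 3 C57BL/6 male mice, whose age is not given in the sources used here, at day 14 post irradiation (DPI). The Control mice were not irradiated. The IR mice received 6.0 Gy of Cobalt-60 gamma rays and the solvent alone, soybean oil with 2% DMSO. The IR+CBD mice received the same dose and cannabidiol (CBD), a compound of the hemp plant, at 50 mg/kg by 4 intraperitoneal injections, 12 h and 0.5 h before and 12 h and 24 h after exposure. Lin-Kit+, Lin-Kit- and Lin+ femoral cells had been sorted and remixed 5:4:1 before loading, so every share of cells below refers to that mix and not to the marrow as it stood.

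The 8 genes had been picked with their IR over Control ratios in these libraries already known, so the rise itself describes them and is no test. Each condition was 1 library of pooled mice, and no difference between conditions could be set against a spread between replicates. Values are given as UMIs (unique molecular identifiers, each standing for 1 RNA molecule captured) and as counts per 1000000 UMIs (CPM), and differences as ratios of CPM. The 95% intervals that follow a ratio are exact conditional binomial intervals, and those of CPM and of shares are exact Poisson and Clopper-Pearson intervals. All of them cover counting error only. A ratio of at least 1.5 in either direction, with at least 20 UMIs in both libraries together, is the size used for counts of genes.

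Immunity-related GTPases (IRGs) and guanylate-binding proteins (GBPs) defend single cells against microbes that live inside membrane vacuoles. Effector IRGs such as Iigp1 assemble on the vacuole and break it, while the regulatory IRGs Irgm1, Irgm2 and Igtp guard the cell's own membranes and hold the effectors inactive there. GBPs gather at vacuoles and at released bacteria and promote inflammasome signaling, and both families depend on the ubiquitin-like ATG8 system for their targeting. Type I interferons act through a complex that holds STAT2 and IRF9 on the interferon-stimulated response element (ISRE), and type II interferon, IFN-gamma, acts on the gamma-activated site (GAS). The genes of both families respond to either kind, and in hematopoiesis Irgm1 is known for its part in keeping stem cells quiescent under interferon.

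The promoters of the genes are shown first, because the ISRE and GAS elements belong to the different interferon types. On GRCm38, by the GENCODE M21 annotation, the regulatory IRGs lie on chromosome 11, with Irgm1 at chr11:48861968-48871683 on the minus strand, Irgm2 at chr11:58199618-58222782 and Igtp at chr11:58199556-58207591 on the plus strand. Gbp7 (chr3:142530342-142550149), Gbp3 (chr3:142560026-142573209) and Gbp2 (chr3:142620602-142638008) lie in 1 cluster on chromosome 3, with Gbp2b between Gbp3 and Gbp2, and are read from the plus strand. A RefSeq promoter window on GRCm38.p6, from 250 bases before to 50 bases after the annotated start, was matched for 6 of the 8 genes, all but Iigp1 and Gm4951. The stretches below hold every match of the ISRE letters (GAAA, any 2 bases, GAAA) or the GAS letters (TTCNNNGAA) in those windows, on either strand, with the matched letters in capitals and 25 bases on each side.

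Irgm1: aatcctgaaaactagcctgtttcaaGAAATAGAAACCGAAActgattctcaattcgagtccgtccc
Irgm2: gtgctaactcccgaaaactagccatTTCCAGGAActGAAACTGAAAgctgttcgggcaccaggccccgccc
Igtp: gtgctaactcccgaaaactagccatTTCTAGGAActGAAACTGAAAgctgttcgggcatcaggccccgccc
Gbp2: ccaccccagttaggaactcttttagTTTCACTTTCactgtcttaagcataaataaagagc
Gbp3: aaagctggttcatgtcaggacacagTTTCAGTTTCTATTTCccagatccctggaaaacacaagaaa
Gbp7: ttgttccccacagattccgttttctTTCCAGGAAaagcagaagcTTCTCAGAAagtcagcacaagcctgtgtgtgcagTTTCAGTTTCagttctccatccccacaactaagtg

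The stretches lie at chr11:48871410-48871475 on the minus strand for Irgm1, and on the plus strand at chr11:58214877-58214947 for Irgm2, chr11:58199486-58199556 for Igtp, chr3:142620579-142620638 for Gbp2, chr3:142559974-142560039 for Gbp3 and chr3:142530205-142530317 for Gbp7. ISRE letters were found in a window of each of the 6 genes, against 1131 of 32851 windows in all (3.44%). Gbp3 has another window, at chr3:142560106-142560405, which held no match of either motif. In Irgm1 and Gbp3 a pair of ISRE matches overlapped, which gives the longer run of capitals, and in Gbp2, Gbp3 and Gbp7 the ISRE reads on the other strand. GAS letters were found in 3 windows, those of Irgm2, Igtp and Gbp7, against 8.30% of all windows, and Gbp7 held a pair of them. Both motifs together stood in 0.454% of all windows. The stretches of Igtp and Irgm2 differed at 2 of 71 bases. A match describes these letters in this window and is not a measured binding site.

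**Figure D1:**
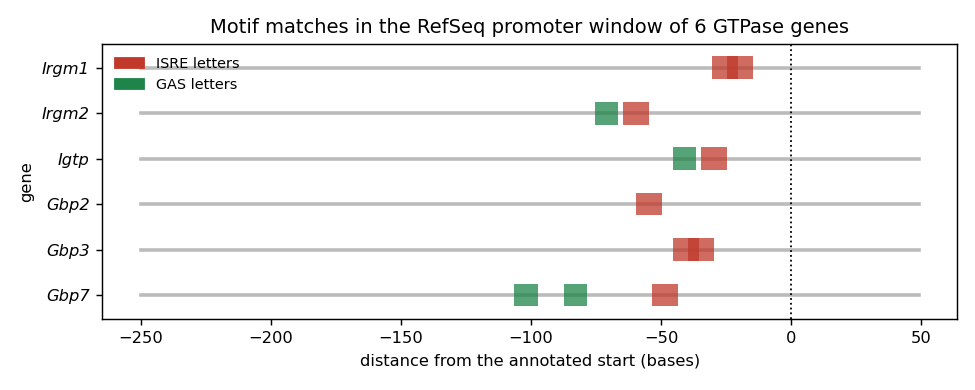
Position of ISRE letters (red) and GAS letters (green) relative to the annotated start (0, dotted line; axis in bases) in the RefSeq promoter windows of 6 genes, with each grey line 1 window. ISRE matches stand in all 6 windows shown within 64 bases before the start, and GAS matches in 3 of them. The other window of Gbp3, without a match, is not shown.

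The 3 libraries were of like depth. Of 12200 Control, 11951 IR and 11884 IR+CBD barcodes, 10674, 10345 and 10273 passed the filters of at least 200 genes and at most 5% mitochondrial UMIs. The kept cells held 194839224, 202361682 and 173466089 UMIs, with medians per cell of 12479.5, 14211 and 12502. Between 26 and 34 kept barcodes were shared by any pair of libraries. Cells were gated by raw UMIs of marker genes into Mpo (granulocyte-monocyte progenitor marker, at least 5 UMIs), Klf1 (erythroid, at least 2), Cd79a (B lineage, at least 2), Retnlg (neutrophil, at least 5), Siglech (plasmacytoid dendritic, at least 3) and Cd34 with Adgrl4 (stem and progenitor, at least 1 of each). All the marker genes listed for the lineage stood at 10 CPM or more in the first 5 gates in all libraries. In the Cd34 Adgrl4 gate 7 of 10 stem cell markers did, and the same number did in the Mpo gate and in cells outside all gates. Cd34, which defines the gate, is among the 10. They summed to 634, 495 and 591 CPM there in Control, IR and IR+CBD, and the 7 granulocyte-monocyte progenitor genes to 12573, 15028 and 15436 CPM. Of 10 endothelial genes 1 stood at 10 CPM or more there, and Cdh5 stood at 0.0898 to 0.158 CPM. A cell may pass several gates, and 2149, 1706 and 1643 cells of the Cd34 Adgrl4 gate were also in the Mpo gate. Gates take in more cells as depth rises, and no doublets were removed.

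In all kept cells, each of the 8 GTPase transcripts was highest in IR. Their summed level was 68.0 CPM in Control (13248 UMIs) against 132 CPM in IR (26654 UMIs) and 73.0 CPM in IR+CBD (12655 UMIs). The summed IR over Control ratio was 1.94 (1.90 to 1.98), that of IR+CBD over IR was 0.554 (0.542 to 0.566), and that of IR+CBD over Control was 1.07 (1.05 to 1.10). The first and the second of these share the IR library, so a high value there raises the one and lowers the other. The members differed widely in the size of the rise, from 6.52-fold for Gm4951 to 1.29-fold for Gbp3.

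**Figure D2:**
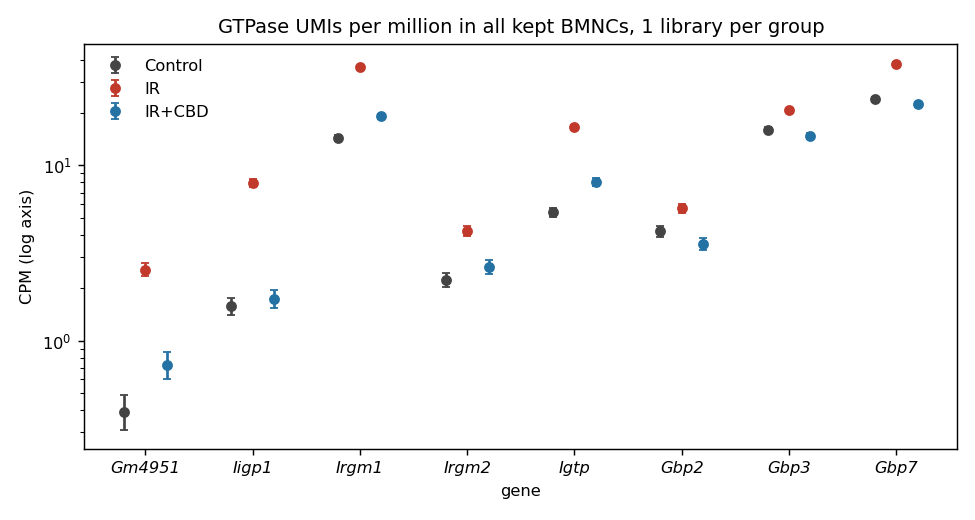
CPM of each GTPase gene in all kept BMNCs (log axis) in Control (grey), IR (red) and IR+CBD (blue), 1 library per group, with exact Poisson 95% intervals. IR is the highest of the 3 points for every gene, with the widest gaps for Gm4951 and Iigp1.

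The effector Iigp1 (chr18:60376027-60392634) and its relative Gm4951 (chr18:60212080-60247820), both on the plus strand of chromosome 18, had the lowest UMI counts in Control and the largest ratios. Iigp1 gave 307 UMIs in Control against 1605 in IR and 300 in IR+CBD, or 1.58, 7.93 and 1.73 CPM. Gm4951 gave 76, 515 and 126 UMIs, or 0.390, 2.54 and 0.726 CPM. For Iigp1 only the IR library stood apart, at 5.03 (4.45 to 5.71) times Control, while IR+CBD was at 1.10 (0.933 to 1.29) times Control. For Gm4951 the IR over Control ratio was 6.52 (5.12 to 8.41), and that of IR+CBD over Control was 1.86 (1.39 to 2.51). Of its 126 IR+CBD UMIs, 70 came from 10 cells and 60 lay in cells outside all gates, which the counting interval does not cover. The IR+CBD over IR ratios were 0.218 (0.192 to 0.247) for Iigp1 and 0.285 (0.233 to 0.347) for Gm4951.

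The regulatory IRGs came next. Igtp, also called Irgm3, gave 1054, 3348 and 1394 UMIs in Control, IR and IR+CBD, or 5.41, 16.5 and 8.04 CPM. Irgm1 gave 2783, 7331 and 3317 UMIs, or 14.3, 36.2 and 19.1 CPM. Irgm2 gave 432, 854 and 458 UMIs, or 2.22, 4.22 and 2.64 CPM. All 3 were lowest in Control and highest in IR. The IR over Control ratios were 3.06 (2.85 to 3.28) for Igtp, 2.54 (2.43 to 2.65) for Irgm1 and 1.90 (1.69 to 2.14) for Irgm2, and those of IR+CBD over Control were 1.49 (1.37 to 1.61), 1.34 (1.27 to 1.41) and 1.19 (1.04 to 1.36). Irgm2 and Igtp overlap by 7974 bases on the same strand in M21, so the position of a read there does not decide between them, and the values of these 2 genes are less certain than the others. The RefSeq promoter window of Irgm2, at chr11:58214727-58215026, lies past the end of Igtp. How many reads fell in the overlap was not measured.

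The GBPs had the smallest ratios. Gbp7 gave 4654, 7667 and 3875 UMIs in Control, IR and IR+CBD, or 23.9, 37.9 and 22.3 CPM. Gbp2 gave 820, 1149 and 620 UMIs, or 4.21, 5.68 and 3.57 CPM. Gbp3 gave 3122, 4185 and 2565 UMIs, or 16.0, 20.7 and 14.8 CPM. All 3 GBPs were lowest in IR+CBD, whereas the regulatory IRGs were lowest in Control. The IR over Control ratios were 1.59 (1.53 to 1.65), 1.35 (1.23 to 1.48) and 1.29 (1.23 to 1.35) for Gbp7, Gbp2 and Gbp3, and those of IR+CBD over Control were 0.935 (0.896 to 0.976), 0.849 (0.764 to 0.944) and 0.923 (0.876 to 0.973). With likely doublets left out, Gbp3 stood at 1.02 in IR+CBD over Control. In the last 500 transcript bases, near which the 3 prime kit reads, 6 of 1599 stretches of 90 bases of Gbp3 (0.375%) were shared with Gbp7, and none of those of the other members with another gene compared.

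By the 1.5-fold size, 6 of the 8 genes were higher in IR than in Control, all but Gbp2 and Gbp3, where 6.71% of the 23428 genes with enough UMIs were. In IR+CBD against IR, 7 of the 8 were lower, all but Gbp3, where 5.03% of genes were. In IR+CBD against Control, 1 of the 8, Gm4951, was higher, where 5.47% of genes were. As these contrasts chose the genes, the counts are given beside those shares and nothing is read from them. The median log2 IR over Control ratio was 1.14 for the 8 genes and -0.06 for all genes with enough UMIs.

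The rise was present in every gate, and its size and leading genes differed between them. The summed level in Control, IR and IR+CBD was 71.0, 113 and 70.8 CPM in Mpo cells, 56.0, 156 and 80.0 CPM in Klf1 cells and 59.8, 138 and 63.9 CPM in Cd79a cells. It was 40.1, 98.1 and 48.1 CPM in Retnlg cells, 61.3, 110 and 68.0 CPM in Siglech cells and 80.3, 126 and 82.2 CPM in Cd34 Adgrl4 cells. Retnlg cells had the lowest Control level and Cd34 Adgrl4 cells the highest, while in IR the Klf1 cells were highest. The IR over Control ratio was 2.78 (2.63 to 2.95) in Klf1 cells, 2.45 in Retnlg cells, 2.31 in Cd79a cells, 1.80 (1.35 to 2.39) in Siglech cells, 1.60 in Mpo cells and 1.57 in Cd34 Adgrl4 cells. Klf1 cells were 5.49% of kept cells in Control against 14.0% in IR and 11.5% in IR+CBD, so the mix of cells moved together with the levels over all cells. With each cell put in its first gate and gates weighted by their Control shares of cells, the ratio over all cells was 2.06, against 1.94 unweighted. The unweighted ratio counts deep cells more than shallow ones and the weighted ratio weighs by cells. The step therefore does not show the part of the cell mix alone, which was not tested.

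Of 48 pairs of a gate and a gene, 45 had enough UMIs, and 36 of these were at least 1.5 times higher in IR than in Control, and all 45 ratios were above 1. The share of all genes higher by that size was 5.47% in Mpo cells, 6.26% in Klf1 cells, 7.93% in Cd79a cells, 7.47% in Retnlg cells, 8.26% in Siglech cells and 4.81% in Cd34 Adgrl4 cells. The gates also chose the genes, so nothing is read from these counts. All 8 genes passed the size in Klf1 cells, 7 in Cd79a and Retnlg cells, 6 in Cd34 Adgrl4 cells, 5 in Mpo cells and 3 of 5 in Siglech cells. The interval of the ratio lay above 1 in 39 pairs, and the share of all genes with such an interval was not taken. Those that reached 1 or below were Gbp3 in Cd79a cells (1.11, 0.963 to 1.27) and in Retnlg cells (1.33, 0.960 to 1.86), Gbp2 in Cd34 Adgrl4 cells (1.14, 0.996 to 1.30), and Iigp1, Irgm1 and Gbp7 in Siglech cells.

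**Figure D3:**
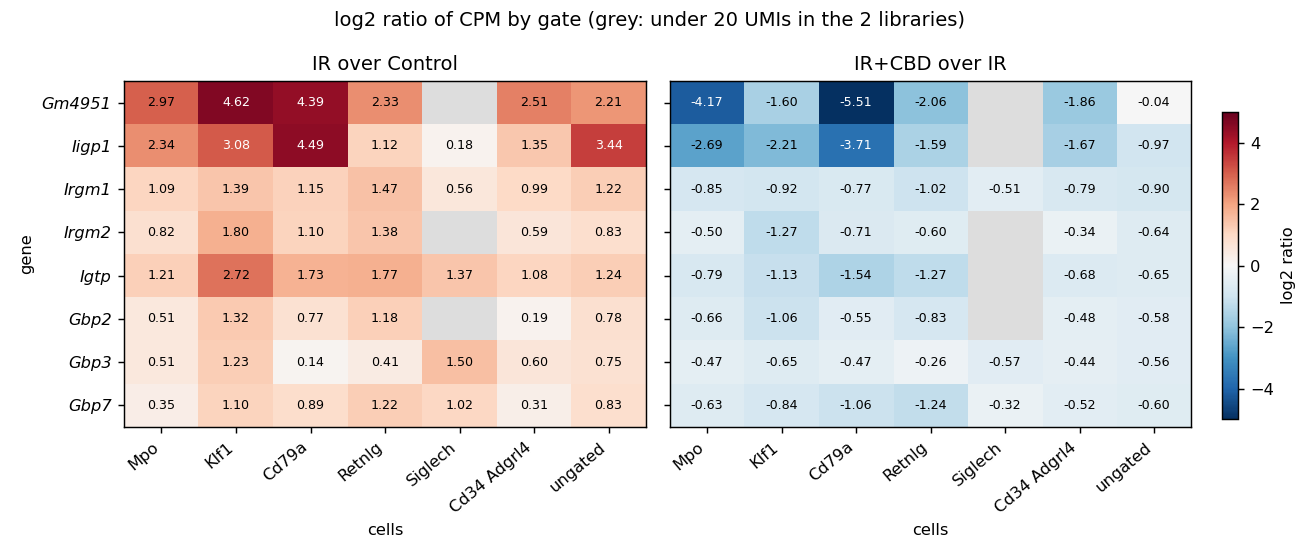
log2 ratio of CPM for each GTPase gene (lines) in each gate and in cells outside all gates (columns), IR over Control on the left and IR+CBD over IR on the right; grey marks pairs with fewer than 20 UMIs. All values on the left are above 0 and all on the right under 0, with the widest values on the left for Gm4951 in Klf1 cells and for Iigp1 and Gm4951 in Cd79a cells, and on the right for Gm4951 in Cd79a and Mpo cells.

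In B-lineage (Cd79a) cells the effectors moved most. Iigp1 gave 25 UMIs in Control against 640 in IR and 35 in IR+CBD, or 0.791, 17.8 and 1.36 CPM. Gm4951 gave 8, 191 and 3 UMIs, or 0.253, 5.31 and 0.116 CPM. For both genes the IR library stood far above the other libraries. The IR over Control ratio was 22.5 (15.1 to 35.02) for Iigp1 and 20.98 (10.4 to 49.3) for Gm4951, and that of IR+CBD over IR was 0.0763 (0.0527 to 0.107) and 0.0219 (0.00448 to 0.0650). The IR UMIs of Iigp1 came from 336 of 4072 cells, and the 10 cells with most held 24.1% of them. The share of the 8 genes' UMIs that Iigp1 took in these cells was 1.32% in Control against 12.9% in IR and 2.12% in IR+CBD. The other members stood lower, with 3.32 for Igtp, 2.22 for Irgm1, 2.14 for Irgm2, 1.85 for Gbp7 and 1.70 for Gbp2.

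In erythroid (Klf1) cells Igtp and the GBPs stood higher over Control than in the Mpo and Cd79a gates. Igtp, which guards the cell's own membranes, gave 90 UMIs in Control against 1541 in IR and 533 in IR+CBD, or 3.69, 24.3 and 11.1 CPM. It was 6.58 (5.32 to 8.23) times higher in IR than in Control and remained 2.998 (2.39 to 3.79) times higher in IR+CBD. Iigp1 gave 22, 483 and 79 UMIs, an IR over Control ratio of 8.44 (5.51 to 13.6), but 16 of the 22 Control UMIs came from 1 cell. Gm4951 gave 1, 64 and 16 UMIs, and from so few Control UMIs the ratio of 24.6 has an interval of 4.26 to 986. Irgm2 stood at 3.47, Irgm1 at 2.62, Gbp2 at 2.49, Gbp3 at 2.34 and Gbp7 at 2.15. Gbp3 made up 7.70% of the 8 genes' UMIs in Control Klf1 cells and 33.0% in Control Mpo cells, while Irgm1 made up 37.8% and 15.7%.

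In granulocyte-monocyte progenitor (Mpo) cells the GBPs were the bulk of the UMIs and their ratios were small. Gbp3 gave 2601, 3157 and 2046 UMIs in Control, IR and IR+CBD, or 23.4, 33.4 and 24.1 CPM, an IR over Control ratio of 1.43 (1.36 to 1.51). Gbp7 gave 2822, 3048 and 1776 UMIs, or 25.4, 32.3 and 20.9 CPM, a ratio of 1.27 (1.21 to 1.34). Both were raised less than the IRGs of the same cells, where the ratio was 7.85 (4.94 to 13.1) for Gm4951, 5.05 (3.82 to 6.77) for Iigp1, 2.31 for Igtp, 2.13 for Irgm1 and 1.77 for Irgm2. Of the 62 Control UMIs of Iigp1, 48 came from 10 cells, and in IR 88 of 266 did.

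In neutrophil (Retnlg) cells the IR over Control ratios were more even, from 5.03 (1.45 to 26.8) for Gm4951, with 3, 17 and 4 UMIs, to 1.33 for Gbp3. Irgm1 gave 100, 313 and 152 UMIs, a ratio of 2.78 (2.21 to 3.52), and Gbp7 gave 180, 474 and 198 UMIs, a ratio of 2.34 (1.96 to 2.79). Iigp1 stood at 2.17 (1.27 to 3.86), below its ratio in the Mpo, Klf1 and Cd79a gates. But 14 of its 20 Control UMIs came from 1 cell, and 19 of its 49 IR UMIs from 1 cell, so this ratio rests on few cells. The 9 erythroid marker genes summed to 612, 2649 and 2254 CPM in Retnlg cells and to 468, 1274 and 1000 CPM in Cd79a cells, all 9 above 0 in each library, and so were higher in both irradiated libraries. The part of erythroid RNA in the ratios was not tested. With likely doublets left out the summed IR over Control GTPase ratio in Retnlg cells was 2.89, and that of IR+CBD over IR 0.346.

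Plasmacytoid dendritic (Siglech) cells, known as strong producers of type I interferon, had the highest Control level of Iigp1 of any gate. Iigp1 gave 32 UMIs in Control against 7 in IR and 3 in IR+CBD, or 10.1, 11.4 and 3.58 CPM. The IR over Control ratio was 1.13 (0.421 to 2.61), and 29 of the 32 Control UMIs came from 10 cells. Markers of other lineages moved with the library in this gate, with the 8 neutrophil genes summing to 5634, 20258 and 5931 CPM and the 10 monocyte and macrophage genes to 889, 1763 and 1127 CPM. Of the neutrophil genes 0 were at 0, and of the monocyte and macrophage genes 2, 4 and 3 were, and their part in the ratios was not tested. The gate held 273 cells in Control against 46 in IR and 79 in IR+CBD, and a difference as large as in B-lineage cells lies outside that interval while a 2-fold one does not. Gbp3 and Igtp stood at 2.82 (1.27 to 5.95) and 2.58 (1.13 to 5.56).

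In the Cd34 Adgrl4 gate the IR over Control ratios ran from 5.71 (4.17 to 7.95) for Gm4951 and 2.55 (2.14 to 3.04) for Iigp1 to 1.24 for Gbp7 and 1.14 for Gbp2. Most cells of that gate also carried Mpo, so the cells below 5 Mpo UMIs were taken apart, a choice made after the values were seen. They numbered 967 in Control against 246 in IR and 327 in IR+CBD, with median depths of 15047, 21638 and 17171 UMIs, and they had more of the stem cell genes Hlf and Mecom. Hlf stood at 157, 100 and 111 CPM, against 49.3, 21.5 and 27.7 CPM in the whole gate, and Mecom at 298, 395 and 405 CPM, against 84.5, 69.7 and 93.5 CPM. Their summed GTPase level was 102, 190 and 112 CPM, an IR over Control ratio of 1.86 (1.72 to 2.01). Gm4951 gave 34, 88 and 40 UMIs and stood at 3.04 (1.88 to 4.95) over Control in IR+CBD. Of its 40 IR+CBD UMIs, 21 came from 1 cell and 35 from 10 cells, which the counting interval does not cover. Iigp1, at 150, 156 and 64 UMIs, stood at 2.95 (2.34 to 3.71) in IR and 1.10 (0.810 to 1.49) in IR+CBD. Gbp2, at 183, 62 and 65 UMIs, had a ratio of 0.960 (0.708 to 1.29) in IR. In these cells 5.41% of genes were higher by 1.5-fold.

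The share of cells with a GTPase UMI was taken at equal depth. Each cell was thinned to 2000 UMIs, which left out 401, 296 and 452 shallower cells. A UMI of any of the 8 genes was then seen in 11.9% of the Control cells (11.3 to 12.6%), 21.7% of the IR cells (20.9 to 22.5%) and 12.6% of IR+CBD cells (11.96 to 13.3%). Without thinning the shares were 50.3%, 65.3% and 48.6%. At 2000 UMIs the mean was 0.136, 0.276 and 0.146 GTPase UMIs per cell, and 1.14, 1.27 and 1.16 per positive cell. With so few UMIs the share follows the mean level, so it cannot tell more positive cells from more UMIs in each. IR was highest in every gate. The thinned shares in Control, IR and IR+CBD were 12.5%, 26.0% and 14.2% in Klf1 cells, 10.8%, 21.8% and 11.9% in Cd79a cells, 12.2%, 20.02% and 13.2% in Mpo cells and 6.42%, 16.5% and 7.85% in Retnlg cells. No cell type here is known to lack these genes, so no share gives the level of free RNA, and its part was not tested. Among the gates of over 100 cells the lowest share stood in Control Retnlg cells, whose median depth of 8769.5 UMIs compares with 33196 UMIs in Control Mpo cells. The 78 IR+CBD Siglech cells at this depth stood at 6.41% (2.11 to 14.3%).

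Deeper cells allowed a look at several members at once. At 20000 UMIs per cell, a depth chosen after the data were seen, 60.8%, 90.7% and 72.5% of the Klf1 cells in Control, IR and IR+CBD held a UMI of the 8 genes (530, 1305 and 1072 cells), and 3.77%, 25.7% and 8.96% held UMIs of at least 3 of them. The mean per cell was 1.09, 3.10 and 1.62 UMIs, and per cell with any it was 1.80, 3.41 and 2.24 UMIs. Mpo cells at that depth showed 69.8%, 84.4% and 71.0% with any and 7.33%, 19.5% and 7.94% with at least 3. In Klf1 cells the IR+CBD shares stood between those of the other libraries, whereas in Mpo cells the intervals of Control and IR+CBD overlapped.

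**Figure D4:**
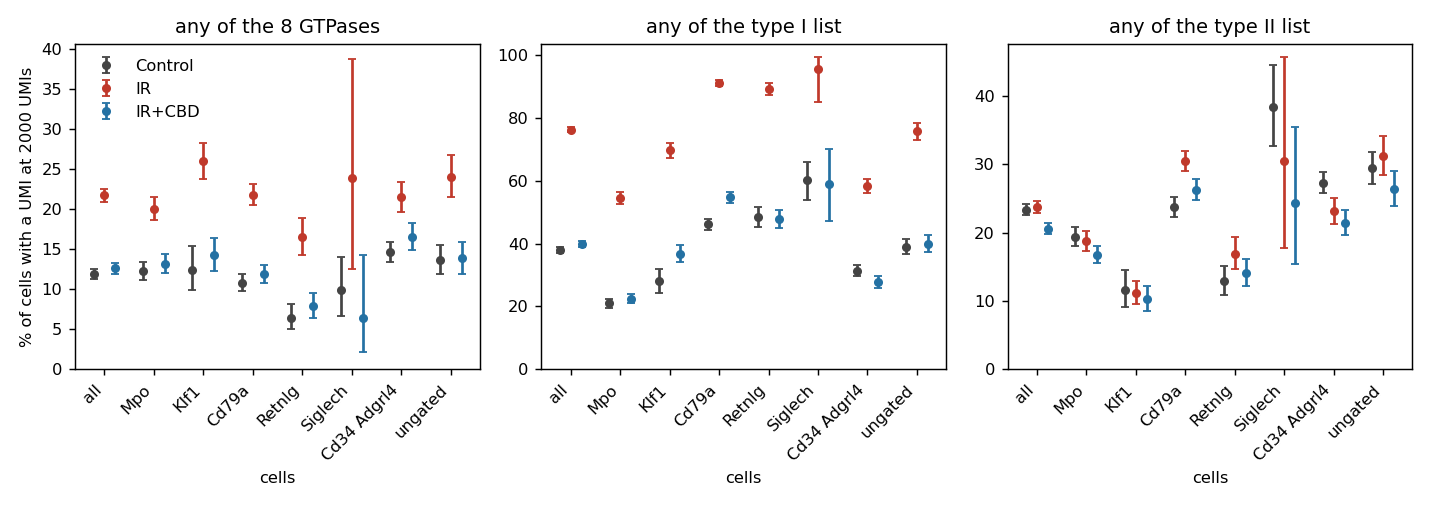
Percent of cells with at least 1 UMI of the 8 GTPase genes (left), of the type I list (middle) and of the type II list (right) after thinning each cell to 2000 UMIs, by gate, in Control (grey), IR (red) and IR+CBD (blue), with Clopper-Pearson 95% intervals. IR is highest in every gate in the left and middle panels, while in the right panel it is not highest in Mpo, Klf1, Siglech and Cd34 Adgrl4 cells.

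CBD treatment went with lower GTPase levels than IR in every gate. Of 43 pairs of a gate and a gene with enough UMIs, 31 were lower in IR+CBD than in IR by at least 1.5-fold. All 43 ratios were below 1, and 39 intervals lay below 1, for which the share of all genes was not taken. The shares of all genes lower by 1.5-fold were 4.21% in Mpo cells, 7.19% in Klf1 cells, 5.49% in Cd79a cells, 5.7% in Retnlg cells, 8% in Siglech cells and 4.54% in Cd34 Adgrl4 cells. Since the IR library enters this contrast too, nothing is read from these counts. The summed IR+CBD over IR ratio was lowest in Cd79a cells (0.462) and highest in Cd34 Adgrl4 cells (0.653). With likely doublets left out it was 0.346 in Retnlg cells, while in Cd79a cells it was at least 0.429 under every alternative. The lowest gate therefore depends on the doublets. Against Control, the summed IR+CBD level was 1.43 (1.34 to 1.52) times higher in Klf1 cells, 1.20 in Retnlg cells (0.999 with likely doublets left out), 1.07 in Cd79a cells, 1.02 in Cd34 Adgrl4 cells and 0.997 in Mpo cells.

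Cells outside all gates numbered 1688 in Control against 1168 in IR and 1357 in IR+CBD, and there the IR+CBD levels of the effectors lay nearer to those of IR than in the gates. Iigp1 gave 22, 200 and 101 UMIs, an IR+CBD over IR ratio of 0.509 (0.397 to 0.650), and Gm4951 gave 16, 62 and 60 UMIs, a ratio of 0.976 (0.673 to 1.41). In IR+CBD a few cells carried these counts, since the Gm4951 UMIs came from 20 cells and those of Iigp1 from 33, with 30 in 1 cell. Cells with at least 5 UMIs of the pair numbered 1, 13 and 8 and held 9 of 38, 108 of 262 and 103 of 161 of these UMIs. Among the 8 such cells of IR+CBD, 4 held a UMI of the adhesion molecule Vcam1, 3 of the chemokine Cxcl9, 3 of the endothelial cadherin Cdh5 and 3 of the niche chemokine Cxcl12, against 3.46%, 0.368%, 0.663% and 0.663% of all ungated IR+CBD cells. Of the macrophage genes, Cd68 was held by 3 of the 8, against 16.1% of all ungated IR+CBD cells, and C1qa, Csf1r and Adgre1 by none. These cells were picked by their GTPase UMIs, so their other genes are a description. The share of genes lower in IR+CBD than in IR by 1.5-fold was 5.16% in ungated cells, where 5 of the 8 GTPases were.

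To place the rise beside the 2 interferon types, the 8 genes were set beside lists of genes that textbook knowledge ties mainly to type I or mainly to type II interferon. In all kept cells the type I list was raised in IR far more than the type II list, and the GTPases stood between them. Of 22 type I genes 21 were at least 1.5 times higher in IR than in Control and none was lower, with a median log2 ratio of 2.17 (1.42 to 2.47). Of 15 type II genes with enough UMIs 6 were higher and 1 was lower, where 6.71% of all genes were higher and 12.3% lower, with a median of 0.11 (-0.20 to 1.04). Genes that answer to both types had a median of 0.67, with 11 of 20 higher, against 1.14 for the 8 GTPases and -0.06 for all genes. The intervals of medians are over genes and cover no difference between mice, and an interferon signal in IR was known from these libraries before the lists were written.

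**Figure D5:**
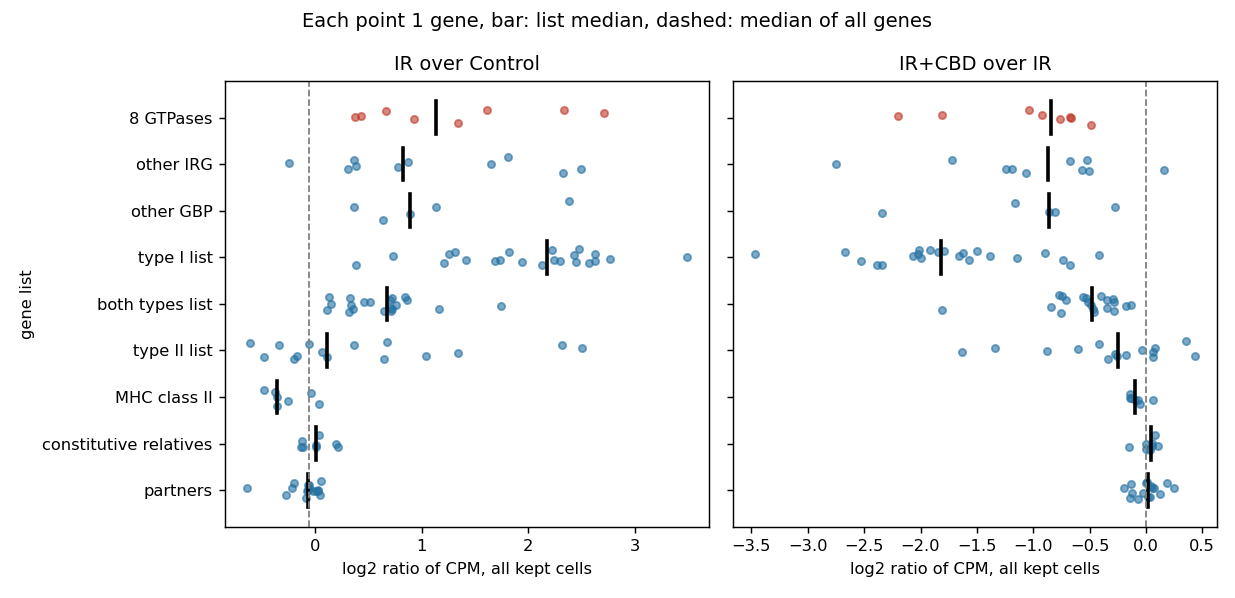
log2 ratio of CPM in all kept cells for each gene (1 point) of the 8 GTPases and 8 other lists, IR over Control on the left and IR+CBD over IR on the right; the bar is the list median and the dashed line the median of all genes. The type I points lie farthest from the dashed line, the GTPases between them and the type II points, and MHC class II genes, constitutive relatives and partners near the line or on its other side.

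The type I genes with the highest ratios were Ifit3b (11.3), Ifit3 (6.82) and Ifi27l2a (6.18), and those with the lowest were Ifit2 (1.30), Herc6 (1.66) and Cmpk2 (2.31). In the type II list, the leading genes were Ubd at 5.67, a ubiquitin-like modifier with 9 UMIs in Control and 53 in IR, the T cell chemokine Cxcl9 at 4.96 and Serpina3f at 2.52. Icam1 stood at 0.652, Ciita, the master regulator of MHC class II, at 0.715 and Slamf8 at 0.791. Fcgr1, an IgG receptor of the same list, was 3.02 (2.53 to 3.61) times higher in ungated cells and 2.19 (1.85 to 2.59) times higher in Mpo cells. MHC class II genes, which IFN-gamma raises through Ciita, had a median log2 ratio of -0.36 with none of 7 higher, where 6.71% of all genes were. They ran from H2-Ab1 (1.02) and Cd74 (0.973) down to H2-DMb1 (0.770) and H2-Eb1 (0.778). Genes of the type I list are also induced to some degree by type II interferon and the reverse, so the lists separate the types only in part.

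Within the gates the order of the lists was kept. The median log2 IR over Control ratios for the type I and type II lists were 2.27 and 0.20 in Mpo cells, 2.39 and 0.50 in Klf1 cells and 2.42 and 0.48 in Cd79a cells. They were 2.44 and 0.50 in Retnlg cells, 1.34 and 0.20 in Siglech cells and 1.49 and 0.13 in Cd34 Adgrl4 cells. The median of the 8 GTPases lay between them in each, at 0.96, 1.58, 1.12, 1.30, 1.06 and 0.80 in the same order of gates. In Siglech cells it was taken over the 5 of them with at least 20 UMIs. In the type II list Irf1, an interferon-induced transcription factor, stood at 1.71 (1.53 to 1.93) in Klf1 cells, 1.41 in Cd79a cells and 0.965 in Cd34 Adgrl4 cells, and Serpina3f stood at 3.98 (3.11 to 5.13) in Cd79a cells. Cxcl9 went from 1 to 41 UMIs in Cd79a cells (ratio 36.0, 6.11 to 1457) and from 22 to 69 in Mpo cells. In Retnlg cells, 3 of 7 MHC class II genes were higher, where 7.47% of all genes were. Among them were H2-Eb1 at 2.63 (2.08 to 3.36) and H2-Aa at 2.19 (1.72 to 2.81), and the IR+CBD over IR ratios of this pair there were 0.112 and 0.188.

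In IR+CBD against IR the type I list fell by a median of 1.82 on the log2 scale, with 21 of 22 genes lower by 1.5-fold, and the type II list by 0.25, with 4 of 15 lower, where 5.03% of all genes were. The 8 GTPases fell by 0.84. Ubd went the other way, with a ratio of 1.28 over IR. As IR is in both contrasts, these values are not independent of those for IR over Control.

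The GTPases were also looked at against the lists cell by cell, at 2000 UMIs. Cells without a type I list UMI held 120, 221 and 125 GTPase UMIs per 1000 cells in Control, IR and IR+CBD, and cells with at least 3 type I UMIs held 245, 325 and 258. By type II list UMIs the values went from 123, 248 and 131 UMIs per 1000 cells at 0 to 393, 967 and 586 at 3 or more. The classes are unlike, since 4210 IR cells held at least 3 type I UMIs and only 150 held at least 3 type II UMIs. Of these 150 cells, 91 were in the Cd79a gate. The type II list also holds Gbp2b and Gbp5, relatives of the members. The sizes of the steps therefore do not bear on the interferon type. IR cells with no type I or no type II UMI held more GTPase UMIs than the like Control cells. Cells of different gates are mixed in these classes, and sparse counts leave many positive cells in the class of 0.

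Relatives outside the 8 genes behaved in a similar range. For every count in this paragraph, the shares of all genes past 1.5-fold were 6.71% higher and 12.3% lower. Among other IRGs 6 of 10 were higher in IR, with a median log2 ratio of 0.82. Tgtp1 (5.63), F830016B08Rik (5.03), which lies on chromosome 18 between Gm4951 and Iigp1, and Tgtp2 (3.51) led, while Irgc1 (0.844), 9930111J21Rik2 (1.24) and Gm12185 (1.29) were lowest. Among other GBPs 4 of 5 were higher, Gbp6 (5.22), Gbp9 (2.19), Gbp4 (1.85) and Gbp8 (1.55), while Gbp5 stood at 1.29. The very large inducible GTPases Gvin1 and Gvin2 both stood at 1.55 and Gvin3 at 0.881. Constitutive relatives of the fold, such as the mitochondrial fission and fusion GTPases Dnm1l (0.911), Mfn1 (1.16) and Mfn2 (0.921) and the atlastins Atl1 (1.14) and Atl3 (1.03), had a median log2 ratio of 0.01, with none of 8 past 1.5-fold. The ATG8 and inflammasome partners had a median of -0.07, with Map1lc3b at 1.04, Gabarapl2 at 1.03 and Aim2 at 0.827, and 1 of 16, the inflammasome sensor Nlrp3 (0.642), was past the size.

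Among receptors and signaling genes Usp18 (5.55), a brake on the type I receptor, Irf7 (4.74) and Irf9 (1.97) were higher in IR by 1.5-fold. The receptor subunits changed little in all cells, with Ifnar1 at 0.801, Ifnar2 at 0.913, Ifngr1 at 1.07, Ifngr2 at 0.906 and Ifnlr1 at 1.33. The kinases Jak1 (0.849), Jak2 (1.02) and Tyk2 (0.946) were likewise below the size, as were Stat2 (1.20), Irf1 (1.08), Irf8 (0.671) and Socs1 (0.959), a feedback inhibitor strongly induced by IFN-gamma.

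Few interferon transcripts were captured. Ifng gave 241 UMIs in Control against 207 in IR and 180 in IR+CBD, of which 205, 163 and 144 lay in ungated cells, and the IR over Control ratio was 0.827 (0.683 to 1.00). Of the genes that mark T and NK cells, the usual sources of Ifng, Cd3e (12.5, 10.6 and 7.20 CPM) and Ncr1 (15.8, 9.06 and 10.9 CPM) stood lower in the ungated cells of the irradiated libraries. The whole list of 12 such genes summed to 502, 582 and 528 CPM there with 0 genes at 0, and 9, 7 and 8 of them stood at 10 CPM or more. The list holds Nkg7, which is also among the granulocyte-monocyte progenitor genes, so its sum does not follow T and NK cells alone. In Mpo cells it summed to 436, 520 and 622 CPM. The part of T and NK cells in the Ifng counts was not tested. Ifnb1 gave 4, 7 and 16 UMIs, Ifna2 1, 4 and 10, Ifnk 10, 11 and 15, Ifnz 4, 8 and 17, and Ifnab 2, 1 and 0. Ifna4 gave 1 UMI in IR and Ifna16 3 in IR+CBD. Of the cytokines that drive Ifng, Il12a gave 6445, 5939 and 4673 UMIs, Il12b 3, 9 and 6, Il27 213, 235 and 192, and Il18 701, 464 and 318, with a ratio of 0.637 in IR. Ifnb1, Ifna2, Ifnk and Ifnz were all highest in IR+CBD. The CPM intervals of Control and IR+CBD did not overlap for Ifnb1 (0.00559 to 0.0526 and 0.0527 to 0.150) and Ifnz (0.00559 to 0.0526 and 0.0571 to 0.157), while those of IR overlapped both. Interferon made by cells outside the mix was not measured.

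Across the 18 sums of 6 gates in 3 libraries, the non-member genes whose level followed the mean of the 8 GTPases most closely were Gm12250 (Pearson r = 0.885), Oas1a (0.883), Xaf1 (0.848), Parp9 (0.843), A930037H05Rik (0.842), Hsh2d (0.836), Phf11d (0.824) and Dhx58 (0.808), out of 14958 genes compared. Of the members themselves, Gm4951 (0.902) and Igtp (0.895) lay closest to that mean and Gbp3 (0.426) and Gbp2 (0.415) farthest, with Iigp1 at 0.729. The sums share libraries and, for gates that overlap, cells, so r is a description of these 18 values.

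The motif letters were counted in the lists as well. Of the type I genes with a RefSeq window, 7 of 15 held ISRE letters and 2 GAS letters, and of the type II genes 4 of 13 held ISRE and 6 GAS letters. Other IRGs held ISRE letters in 5 of 8 windows and GAS letters in 4. Among the members with a window, those with both motifs, Irgm2, Igtp and Gbp7, had IR over Control ratios in all cells of 1.90, 3.06 and 1.59, and those with ISRE letters alone, Irgm1, Gbp2 and Gbp3, had 2.54, 1.35 and 1.29. With 3 genes in each class the ranges overlap.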

How the data were processed

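BMNCs from 3 pooled mice per group were profiled in 3 droplet libraries (3 prime kit). For each, the authors deposited a matrix of raw UMI counts (genes by cells), with no normalization. Cell Ranger is given as 7.0.1 in the file headers and as 4.0 in the submitters' notes, which also list GRCm39. Intronic reads are counted by default in the first and not in the other, which could change levels of genes with long introns. Positions came from GENCODE M21 (GRCm38), matched on Ensembl identifiers.

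Cells with at least 200 genes and at most 5% mitochondrial UMIs were kept, and UMIs were summed per library and gate (Python 3.11.15, numpy 2.4.6, scipy 1.17.1, pandas 2.3.3, matplotlib 3.10.9). List medians used a pseudocount of 0.5 UMI. With 1 library per group no test was made. On simulated counts, the imposed ratio lay inside the 95% interval in 95.6% of 23123 genes (IR against Control, all cells), and 4.12% of unchanged genes passed 1.5-fold there, against 15.5% of 10063 genes in the small Siglech gate. The counts were drawn independently under the Poisson model that the intervals assume, so the coverage checks the calculation only. UMIs gathered in a few cells were not simulated.

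Members and lists were chosen with earlier results of these data known. Named genes were all members, all detected interferon and cytokine ligands, all receptors and signaling genes, the 3 highest and 3 lowest genes by IR over Control of each other list with at least 50 UMIs, and the 8 genes most like the members. Not every gene under this rule is reported here. Other genes, values of list genes in single gates, the cells below 5 Mpo UMIs and the depth of 20000 UMIs were chosen after the values were seen. Alternatives were other filters, scaling, depths, gates, count minimums and folds, removal of likely doublets and weighting by Control shares.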

Additional observations from a re-analysis of the deposited data

Results flagged for a closer look

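In IR+CBD against Control, 2 genes stood on opposite sides of 1 in different gates, with intervals that exclude 1. Gbp3 was at 1.49 (1.19 to 1.88) in Klf1 cells, from 105 UMIs in Control and 309 in IR+CBD, and at 0.797 (0.675 to 0.940) in Cd79a cells. Gbp7 was at 1.20 (1.09 to 1.33) in Klf1 cells and at 0.824 (0.776 to 0.875) in Mpo cells. With 1 library per group the difference between gates was not tested.

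The barcodes left out by the filters, 1526 in Control against 1606 in IR and 1611 in IR+CBD, also held GTPase UMIs. Their summed level was 59.2, 124 and 69.8 CPM, with an IR over Control ratio of 2.10 (1.81 to 2.44) and of IR+CBD over IR of 0.562.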

How the results depend on the processing

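No ratio past 1.5-fold and no list median changed direction under the alternatives tried. Of 65 alternatives of the 12 results on summed levels, counts of pairs, list medians and shares, 53 stayed within the counting error or within 1.5 times the count. The summed IR over Control ratio was 2.02 with median-of-ratios scaling, 2.06 with gates weighted by Control shares and 2.03 with cells thinned to 2000 UMIs. That of IR+CBD over IR was 0.540 weighted and 0.487 thinned. That of IR+CBD over Control was 1.11 with median-of-ratios scaling, 1.11 weighted and 0.988 thinned. These thinned ratios come from a random draw of their own. The draw used for the shares of cells, at the same 2000 UMIs, gave 0.136, 0.276 and 0.146 GTPase UMIs per cell in Control, IR and IR+CBD. There IR+CBD stood above Control, so thinning did not settle on which side of 1 this ratio lies. With a fold of 2, 18 pairs in place of 31 were lower in IR+CBD than in IR. The share of all genes past 2-fold was not taken, so nothing is read from this count. At 1000 UMIs the shares of cells with a GTPase UMI were 6.55%, 11.9% and 6.79% in Control, IR and IR+CBD. The type II list median of IR over Control ranged from 0.10 to 0.46 over its alternatives. With 871, 891 and 913 likely doublets left out, the summed IR over Control ratio was 2.89 in Retnlg cells. The cause of these shifts was not tested. No paired analysis was possible because each group was 1 library and no result came from a test, and no replicate could be left out. Depth limits the Siglech gate, where 3 of the 8 genes had too few UMIs.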
